A study of Mus musculus with 6 samples.

Results

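Wnt proteins are secreted, lipid-modified signals that bind Frizzled receptors together with Lrp5 or Lrp6. In the canonical branch this stops the breakdown of β-catenin, which then joins TCF and LEF factors on target genes, and several of those targets are inhibitors of the pathway. In a second branch, Frizzled, Ror and planar cell polarity proteins steer cell movement and orientation without β-catenin. In the forming heart, canonical signals act on progenitors and valve cushions, and Wnt5a and Wnt11 act on the outflow tract.

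The genes described are 60 listed components of this pathway: ligands, proteins of ligand secretion, secreted antagonists, receptors, intracellular relays, transcription factors, feedback targets and planar cell polarity proteins. They were taken by symbol from the deposited expression table, which held 56 of the 60 among its 15330 rows. Wnt6, Wif1, Notum and Rnf43 had no row under those symbols and were not analysed here. RNA was measured by sequencing in mouse hearts at embryonic day 9.5 in 2 groups of 3 libraries. The deletion hearts were homozygous (H2-URI d/d) for an allele made with CRISPR-Cas9 that lacks 373 kb of the interval upstream of Hand2. Hand2 encodes a transcription factor of the helix-loop-helix class that heart formation needs. The other hearts were labelled wildtype, and no treatment, Cre or transgene is named for either group. Each group held 2 libraries labelled female and 1 labelled male, all of batch 1. The labels leave unsaid whether hearts were pooled for a library, and p-values here reflect only library-to-library spread, which may be partly technical. The comparison asks which transcripts differ in hearts that lack this interval.

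Values are normalized counts, that is, reads per gene divided by a size factor for each library by the authors. The column totals were 27964038 to 28160401 in deletion libraries and 28492575 to 29325001 in wild-type libraries. Hand2 stood at 1025, 1158 and 1163 normalized counts in deletion libraries and at 3911, 3789 and 4407 in wild-type libraries. Columns were matched to samples through the code in the title, but the records place 4 of the 6 files under a sample of the other group. With the groups as recorded, limma called 0 genes, and 414 had an unadjusted p under 0.05. The groups as recorded would put 3911, 3789 and 1163 normalized counts of Hand2 under deletion and 1025, 1158 and 4407 under wild-type. All results below follow the titles. All 8 cardiomyocyte markers looked for were in the table, with summed levels of 831500 to 922100 normalized counts in deletion libraries and 794800 to 938000 in wild-type libraries.

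The test was limma on log2(normalized count + 1) over all 15330 genes, with Benjamini-Hochberg adjustment and a threshold of 0.05. Fold changes are differences on that scale, deletion minus wild-type. Of the 56 measured members, 4 passed, which is 7.14%, where 3.05% of all genes passed. Wnt4 was the 1 member that fell (1.79%, against 1.5% of all genes), and Sost, Dkk3 and Fzd2 were the 3 that rose (5.36%, against 1.55% of all genes). The 2 groups did not overlap for 20 members, or 35.7%, against 27.4% of all genes, and 19 members, or 33.9%, had an unadjusted p under 0.05, against 21.4% of all genes. The members were chosen with earlier results of these data known, so these shares cannot be read as an excess in the pathway. The median log2 fold change was 0.11 over the members and -0.01 over all genes. Once each library was corrected for length and GC of the transcripts, the median was 0.01 over the members and -0.02 over all genes. With that step 29 members were above 0 and 27 below, against 38 and 18 without it. The members' transcripts had a median of 4113 bases and a GC content of 52.8%, against 3179 bases and 49.7% over all genes. The part of length and GC in the members' median was not tested.

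**Figure D1:**
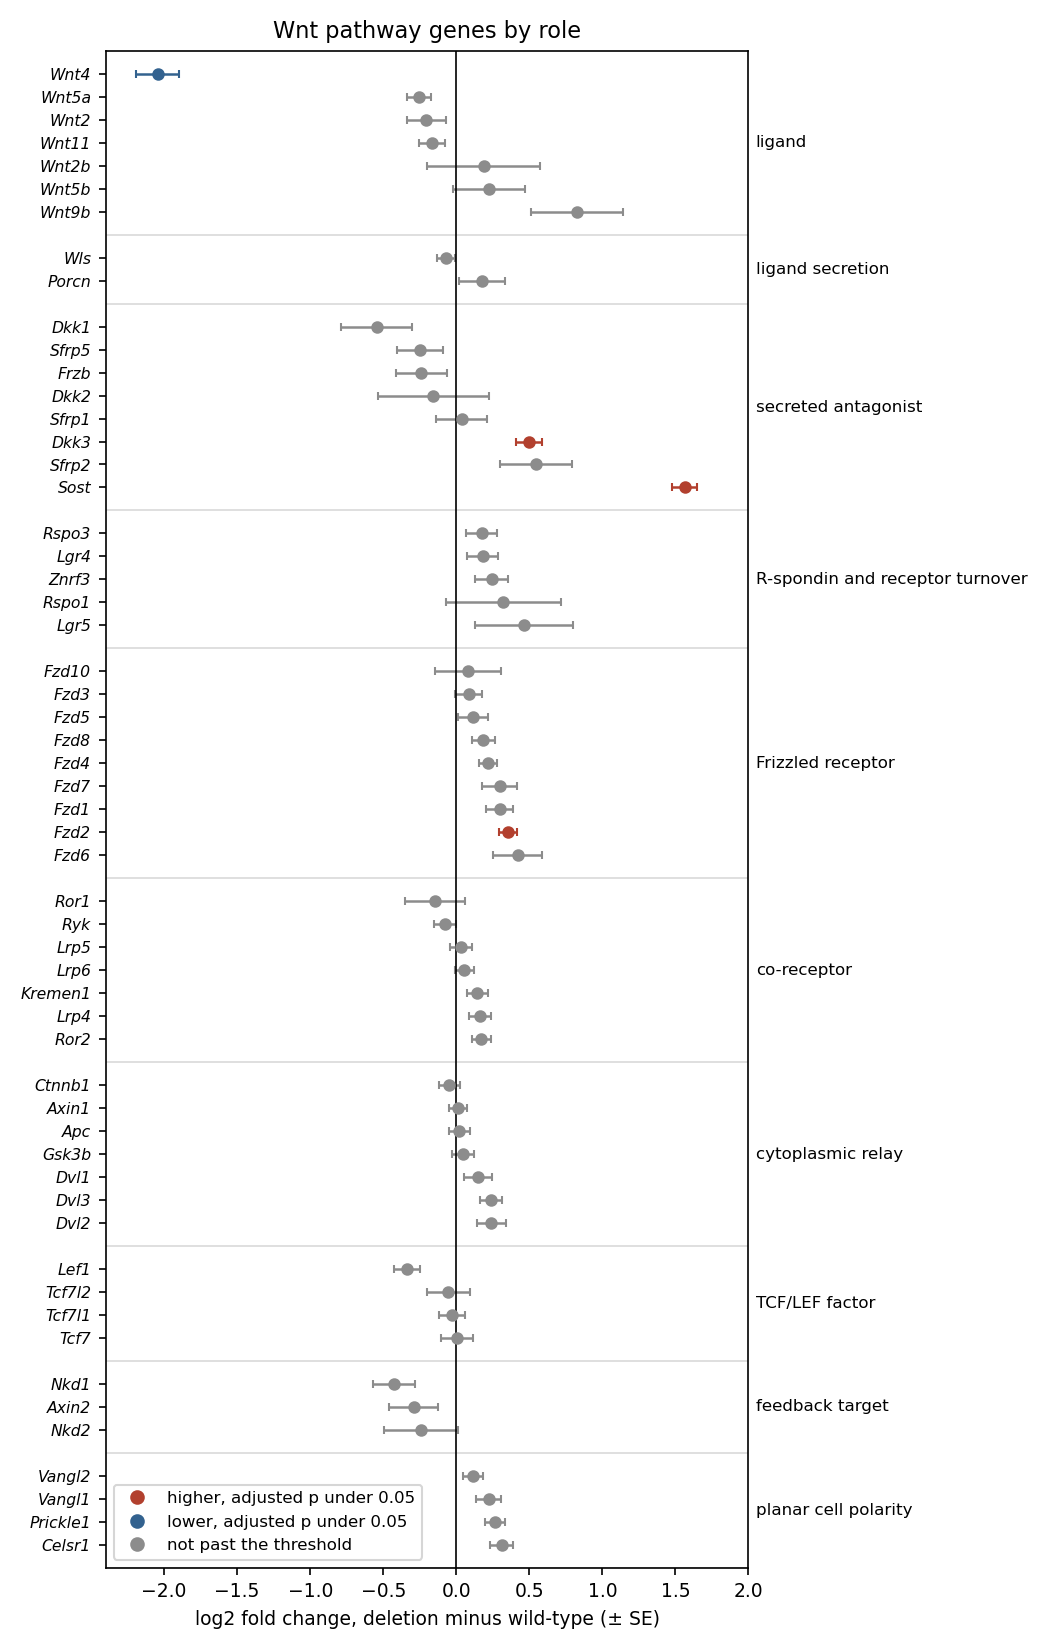
Log2 fold change (deletion minus wild-type, horizontal axis) of the 56 measured Wnt pathway genes, grouped by role; points are the estimates of limma and bars their standard errors, from 3 libraries per group, with colour for an adjusted p under 0.05. Wnt4 lies at -2.04 and Sost at 1.56, while the 52 members that did not pass lie between -0.54 and 0.83.

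Wnt4 and Sost were the members whose calls held in all 19 alternatives that kept the groups as titled, and they moved in opposite directions. The 250 bases before their annotated starts are shown because Hand2 is a factor of the class that binds E-boxes. Capitals mark each match to the E-box letters CANNTG, which read the same on both strands. The sequences are RefSeq's on GRCm38.p6, another build than the GRCm39 of the authors' processing, Wnt4 at chr4:137277385-137277634 on the + strand and Sost at chr11:101967016-101967265 on the - strand.
Wnt4: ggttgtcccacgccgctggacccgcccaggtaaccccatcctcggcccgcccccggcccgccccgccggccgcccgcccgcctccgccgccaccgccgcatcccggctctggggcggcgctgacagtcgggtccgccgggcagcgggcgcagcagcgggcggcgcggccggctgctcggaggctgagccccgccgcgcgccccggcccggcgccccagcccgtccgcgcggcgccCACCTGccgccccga
Sost: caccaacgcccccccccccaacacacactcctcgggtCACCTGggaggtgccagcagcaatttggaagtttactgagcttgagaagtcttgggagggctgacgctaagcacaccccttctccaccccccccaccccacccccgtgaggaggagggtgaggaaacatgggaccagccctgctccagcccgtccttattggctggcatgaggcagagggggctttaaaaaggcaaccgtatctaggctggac
Each window held 1 E-box, beginning 15 bases before the start in Wnt4 and 213 bases before it in Sost. Such a match was common: 66.2% of the 32851 promoter windows in the table held at least 1. Counted by gene, 69.3% of 27025 genes had a window with a match, as did 21 of the 37 measured members with a sequence there. Neither window held CATCTG, a form of the E-box counted within CANNTG, or CTTTGA, the core of the TCF motif, on either strand. Those letters occurred in 14.4% and 13.8% of all windows. The Wnt4 window was 85.2% G and C and the Sost window 61.2%. A match is a description of the sequence and no evidence of binding.

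Among the 7 measured ligands, 1 fell, where 1.5% of all genes did, 0 rose and 6 did not pass. Wnt4, a ligand known from mouse endocardium and from kidney and gonad development, had 67.6, 69.6 and 54.0 normalized counts in deletion hearts and 277, 264 and 253 in wild-type hearts. Every deletion library was below every wild-type library, with a wide gap between the groups. The deletion mean of 63.7 ± 8.49 was 24.1% of the wild-type mean of 265 ± 12.2 (SD, n = 3 each), a log2 fold change of -2.04 (SE 0.15, adjusted p = 1.52e-04, limma). Permuting the 6 values exactly, two-sided, gave p = 0.1 for Wnt4 and for each of the other 3 members that passed, the smallest that 3 against 3 allows. In whole hearts, fewer cells of a type and less RNA per cell cannot be told apart. The 8 endocardial and endothelial markers, all measured, summed to 22640 to 23420 normalized counts in deletion libraries and 21940 to 23420 in wild-type libraries. Within that list the genes moved both ways: Kdr rose (log2 fold change 0.33) and Tek fell (-0.35), while Emcn was apart between the groups at 76.5% of the wild-type mean without passing (-0.39, adjusted p = 0.0506, limma). The part of these cells in the Wnt4 result was not tested. The 8 markers of cushion and other mesenchyme summed to 3518 to 5366 in deletion libraries and 6751 to 8803 in wild-type libraries. Col3a1 (-1.26), Postn (-1.27) and Twist1 (-1.14) passed the threshold. The other 5 did not pass, with log2 fold changes from -0.64 to 0.14. Much of the gap in the sum was Col3a1, at means of 1751 in deletion hearts and 4178 in wild-type hearts. The part of that shift in the Wnt4 result was not tested either.

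The other ligands gave smaller differences. Wnt5a, a ligand of the branch without β-catenin that is needed for the outflow tract, had 1273, 1241 and 1363 normalized counts in deletion hearts and 1387, 1677 and 1570 in wild-type hearts. The groups did not overlap, but the log2 fold change of -0.25 did not pass (SE 0.08, adjusted p = 0.12, limma). It passed after the length and GC correction (-0.29, adjusted p = 0.0384, limma) and without wild-type replicate 1 (-0.33, adjusted p = 0.0367, limma). Wnt9b stood at 38.0, 37.1 and 33.5 normalized counts in deletion hearts and at 12.5, 27.6 and 22.9 in wild-type hearts. These low values did not overlap either, and the log2 fold change of 0.83 carried a standard error of 0.32 (adjusted p = 0.175, limma). It was 0.51 without wild-type replicate 1, the lowest library, and 1.05 without wild-type replicate 2. Wnt2, a ligand of the venous pole, averaged 1344 ± 161 in deletion hearts and 1561 ± 300 in wild-type hearts, and Wnt11, which like Wnt5a acts in the outflow tract, averaged 821 ± 80.8 in deletion hearts and 919 ± 46.6 in wild-type hearts (SD, n = 3 each). Neither passed, at log2 fold changes of -0.21 and -0.17, and both overlapped between groups. Wnt2b and Wnt5b were low in both groups, with means of 49.1 and 48.7 normalized counts in deletion hearts and 39.5 and 40.9 in wild-type hearts.

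The place of Wnt4 among the ligands differed between the groups. Per kilobase of annotated exon, wild-type hearts had 692 normalized counts of Wnt2, 222 of Wnt11, 197 of Wnt5a and 63.1 of Wnt4 on average, with Wnt5b at 15.4, Wnt2b at 9.39 and Wnt9b at 4.64. In deletion hearts Wnt4 averaged 15.2 per kilobase, beside 18.3 for Wnt5b and 11.7 for Wnt2b. Its libraries ran from 12.9 to 16.6 per kilobase there, inside the combined range of those 2 ligands, 5.28 to 23.6, so that these 3 no longer had an order beyond their spread. In wild-type hearts the lowest Wnt4 library, at 60.2 per kilobase, was far above the highest Wnt5b library, at 16.7. Wnt11 and Wnt5a overlapped in wild-type hearts, and Wnt2 was the highest ligand in every library.

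**Figure D2:**
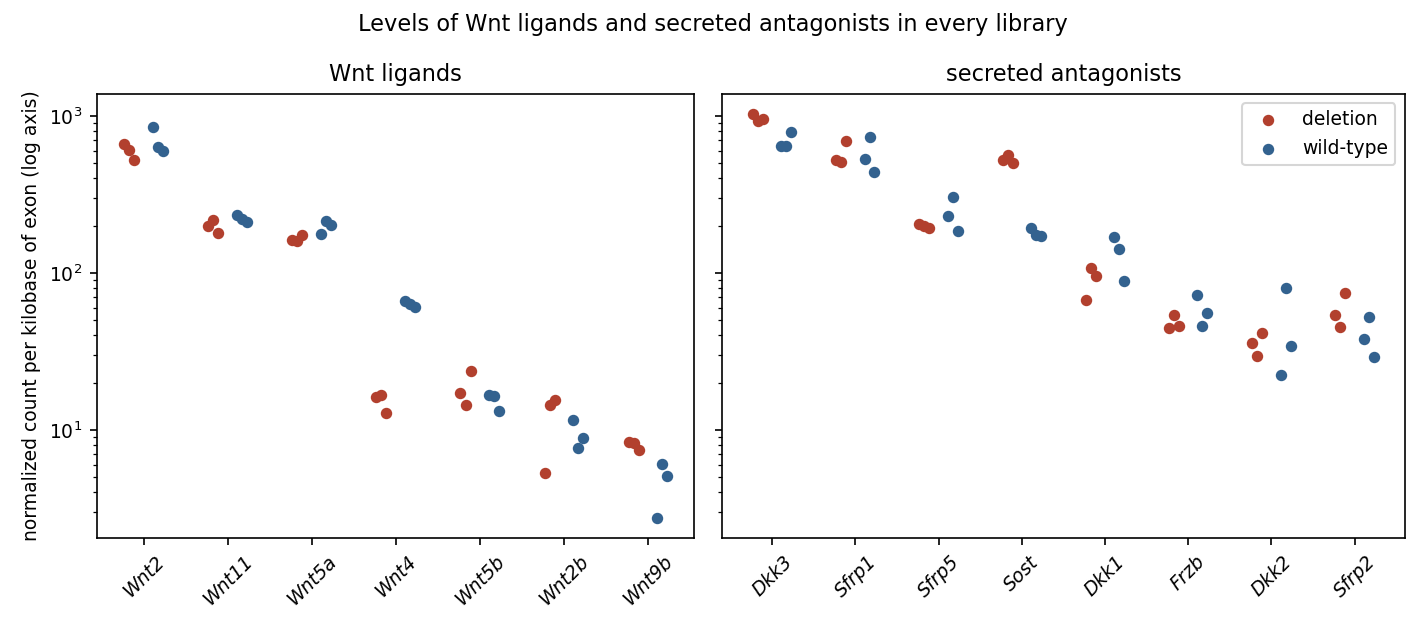
Level in normalized counts per kilobase of exon (vertical log axis) of the measured Wnt ligands and secreted antagonists, each point 1 library, deletion left of wild-type, genes ordered by the wild-type mean. Wnt4 drops to the level of Wnt5b in deletion hearts, and Sost reaches that of Sfrp1.

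The 2 genes of ligand secretion did not pass. Wls, the carrier that brings Wnt proteins to the cell surface, averaged 5138 ± 74.6 normalized counts in deletion hearts and 5403 ± 239 in wild-type hearts (SD, n = 3 each). Porcn, the enzyme that attaches the lipid, averaged 167 ± 26.5 in deletion hearts and 148 ± 17.8 in wild-type hearts.

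Of 8 measured secreted antagonists 2 rose, where 1.55% of all genes did, 0 fell and 6 did not pass. Sost, or sclerostin, binds Lrp5 and Lrp6 and blocks canonical signalling, and is best known from bone. It had 1083, 1172 and 1038 normalized counts in deletion hearts and 400, 360 and 353 in wild-type hearts. All 3 deletion libraries exceeded all 3 wild-type libraries, and the spread within each group was small beside the gap. The deletion mean of 1098 ± 68.1 was 2.96 times the wild-type mean of 371 ± 24.9 (SD, n = 3 each; log2 fold change 1.56, SE 0.09, adjusted p = 3.91e-05, limma). Over the 19 alternatives that kept the groups its log2 fold change ran from 1.51 to 1.62, and that of Wnt4 from -2.15 to -1.93.

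Dkk3 belongs to the Dickkopf family by sequence, and unlike Dkk1 it is not a plain inhibitor of Lrp5 and Lrp6. It had 3469, 3114 and 3206 normalized counts in deletion hearts and 2153, 2170 and 2637 in wild-type hearts. The groups were apart, and wild-type replicate 3 was the nearest to the deletion libraries. The deletion mean of 3263 ± 184 was 1.41 times the wild-type mean of 2320 ± 275 (log2 fold change 0.50, SE 0.09, adjusted p = 0.0198, limma). The call was lost without any 1 of the deletion libraries, with adjusted p from 0.0743 to 0.0972 in limma, although the fold change stayed between 0.45 and 0.53 in those fits. It was also lost without the intensity trend (adjusted p = 0.0972), in the female libraries (0.0630) and with the replicate block (0.0502), all in limma.

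The antagonists that did not pass pointed both ways. Dkk1, which removes Lrp5 and Lrp6 from the cell surface, had 163, 259 and 232 normalized counts in deletion hearts and 412, 345 and 214 in wild-type hearts. The groups overlapped, since wild-type replicate 3 lay within the deletion range (log2 fold change -0.54, adjusted p = 0.234, limma). The decoy receptors of the Sfrp family, which bind Wnt proteins outside the cell, had log2 fold changes of 0.04 for Sfrp1, 0.55 for Sfrp2, -0.25 for Sfrp5 and -0.24 for Frzb, with overlapping groups in each. Dkk2 was the member with the widest relative spread in wild-type hearts, at 82.9, 295 and 126 normalized counts, against 133, 110 and 153 in deletion hearts.

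The place of Sost among the antagonists, per kilobase of exon, differed as well. In deletion hearts Dkk3 averaged 972 normalized counts per kilobase, Sfrp1 575, Sost 531 and Sfrp5 199. In wild-type hearts Dkk3 averaged 691, Sfrp1 569, Sfrp5 241 and Sost 180. In deletion libraries Sost ranged from 502 to 567 and overlapped Sfrp1, at 508 to 691, while lying above every Sfrp5 library, which reached 205. In wild-type libraries Sost, at 171 to 193, overlapped Sfrp5, at 186 to 305, and lay below Sfrp1, which began at 439.

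**Figure D3:**
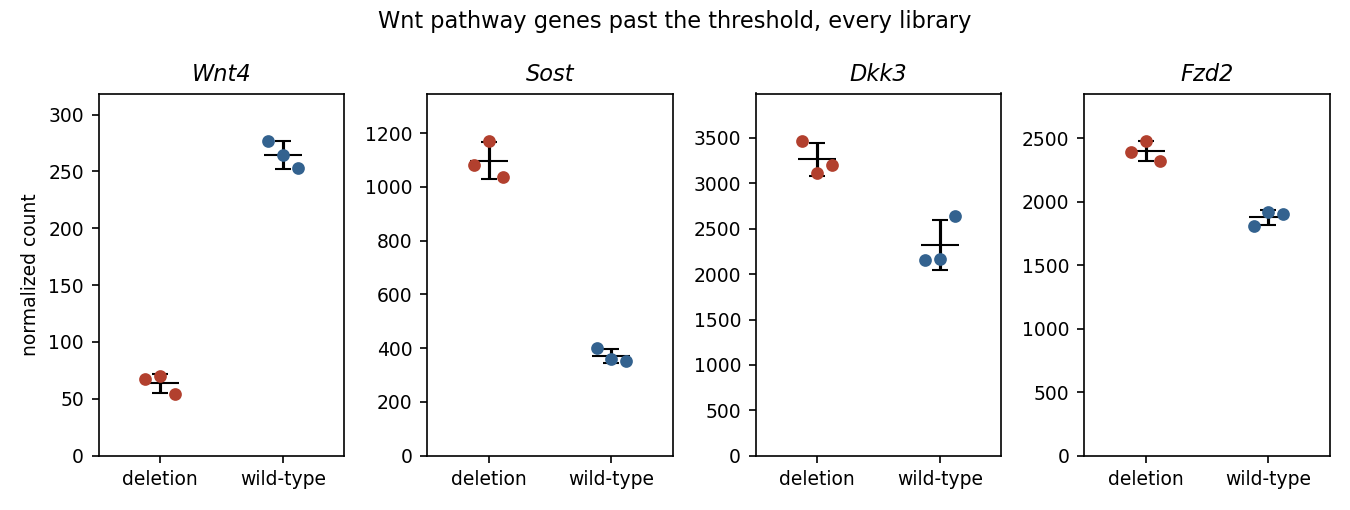
Normalized counts (vertical axes from 0, a separate scale per gene) of the 4 members past the threshold; points are libraries, the horizontal line is the mean and its whiskers the SD of 3 libraries, deletion left of wild-type. Wnt4 is lower and Sost, Dkk3 and Fzd2 are higher in all 3 deletion libraries than in any wild-type library.

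R-spondins keep Frizzled receptors at the surface by binding Lgr receptors and the ligase Znrf3, which otherwise removes them. Of the 5 measured genes of this group none passed in limma at the adjusted threshold, and 0 had an unadjusted p under 0.05. All 5 had a log2 fold change above 0, from 0.17 for Rspo3 to 0.47 for Lgr5, and the groups overlapped in all 5. The count above 0 was 4 of 5 in the female libraries and without wild-type replicate 3. Rspo3, close to Lgr4 in level per kilobase, with overlapping libraries, had 866, 904 and 747 normalized counts in deletion hearts and 657, 754 and 822 in wild-type hearts. Znrf3 averaged 563 ± 37.6 in deletion hearts and 478 ± 63.1 in wild-type hearts, and Lgr4 1549 ± 136 in deletion hearts and 1372 ± 192 in wild-type hearts (SD, n = 3 each). Lgr5 was low, at 25.3, 19.5 and 29.2 in deletion hearts and 18.2, 24.0 and 11.9 in wild-type hearts, and so was Rspo1, at means of 30.5 in deletion hearts and 26.3 in wild-type hearts.

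Among the 9 Frizzled receptors 1 rose, where 1.55% of all genes did, 0 fell and 8 did not pass. The groups were apart for 5 of the 9, and for 27.4% of all genes. Fzd2, the receptor with the highest level per kilobase in both groups and one that Wnt5a can use, had 2390, 2481 and 2324 normalized counts in deletion hearts and 1809, 1916 and 1905 in wild-type hearts. The groups were apart, with less spread in each than between them. The deletion mean of 2398 ± 78.8 was 1.28 times the wild-type mean of 1877 ± 58.9 (SD, n = 3 each; log2 fold change 0.35, SE 0.06, adjusted p = 0.0186, limma). The call ended after the length and GC correction (0.25, adjusted p = 0.0801, limma), and without any 1 deletion library or wild-type replicate 3. It also ended without the intensity trend (adjusted p = 0.0812), in the female libraries (0.169) and with the replicate block (0.0633), all in limma.

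The other Frizzled genes had log2 fold changes from 0.08 for Fzd10 to 0.42 for Fzd6, so all 9 estimates were above 0, with a median of 0.22. The count above 0 was 7 after the length and GC correction and 8 in the female libraries alone. It was also 8 when deletion replicate 3, wild-type replicate 1 or wild-type replicate 2 was left out. Fzd4, a receptor of vessel growth, had 2753, 2564 and 2755 normalized counts in deletion hearts and 2403, 2230 and 2314 in wild-type hearts. Fzd1 had 909, 1017 and 1082 in deletion hearts and 886, 777 and 783 in wild-type hearts. Both were apart between the groups without passing (log2 fold changes 0.22 and 0.30, adjusted p = 0.0932 and 0.103, limma). Fzd7 and Fzd8 were apart as well, at means of 1421 ± 86.0 and 700 ± 19.0 in deletion hearts and 1169 ± 210 and 616 ± 36.9 in wild-type hearts (SD, n = 3 each). Fzd6, a receptor of planar cell polarity, averaged 266 ± 19.3 in deletion hearts and 203 ± 50.9 in wild-type hearts and overlapped, because wild-type replicate 2 reached 260. Its log2 fold change of 0.42 was 0.61 when that library was left out, where it passed (adjusted p = 0.0308, limma), but 0.27 without wild-type replicate 3 (adjusted p = 0.44, limma) and 0.24 in the female libraries (adjusted p = 0.644, limma). Fzd7 likewise stood at 0.14 without wild-type replicate 3 and 0.10 in the female libraries, against 0.30, and after the length and GC correction Fzd1 stood at 0.20, against 0.30, and Fzd8 at 0.11, against 0.19.

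**Figure D4:**
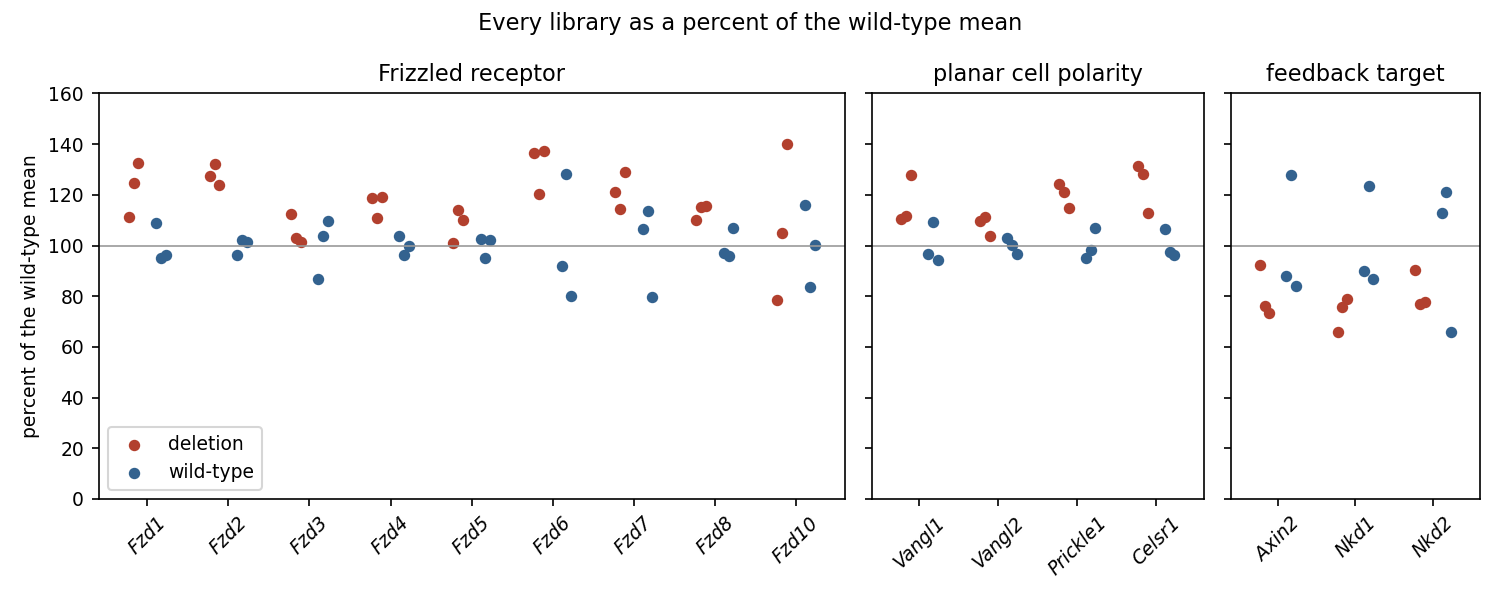
Each library as a percent of the wild-type mean of the gene (vertical axis from 0, line at 100) for Frizzled receptors, planar cell polarity genes and feedback targets, deletion left of wild-type. Fzd2 and the 4 polarity genes are among those with every deletion library above every wild-type library, and for Nkd1 every deletion library is below.

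Of 7 co-receptor genes none passed. Where 21.4% of all genes had an unadjusted limma p under 0.05, 1 of the 7 did. That was Ror2, a receptor for Wnt5a, which had 1508, 1573 and 1406 normalized counts in deletion hearts and 1354, 1326 and 1299 in wild-type hearts (log2 fold change 0.17, SE 0.07, adjusted p = 0.184, limma). Its groups were apart, and its fold change was 0.03 after the length and GC correction. Lrp6 and Lrp5, the obligate partners of Frizzled in canonical signalling, averaged 3393 ± 41.5 and 1335 ± 58.7 in deletion hearts and 3273 ± 213 and 1309 ± 97.1 in wild-type hearts (SD, n = 3 each). Lrp4, a receptor that also binds Sost, was apart between the groups without passing (log2 fold change 0.16). Ryk, the highest of the group per kilobase, had a log2 fold change of -0.08, and Kremen1, the receptor through which Dkk1 acts on Lrp6, had 0.14.

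The cytoplasmic relay gave small differences, and 0 of its 7 genes passed. Ctnnb1, the gene of β-catenin, had 24245, 22347 and 22803 normalized counts in deletion hearts and 25058, 23133 and 23553 in wild-type hearts, with overlapping groups (log2 fold change -0.05, SE 0.07). The destruction complex genes Axin1, Apc and Gsk3b had log2 fold changes of 0.01, 0.02 and 0.05, with standard errors of 0.06 to 0.08. Dishevelled proteins carry the signal from Frizzled. Dvl2 had 1271, 1403 and 1215 normalized counts in deletion hearts and 1205, 1151 and 949.9 in wild-type hearts. Dvl3 had 2916, 2921 and 3112 in deletion hearts and 2319, 2711 and 2573 in wild-type hearts. Both were apart between the groups and neither passed (log2 fold change 0.24 in each, adjusted p = 0.206 and 0.104, limma). The length and GC correction left 0.11 for Dvl2 and 0.15 for Dvl3, and without wild-type replicate 3 Dvl2 stood at 0.14.

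Among the 4 TCF and LEF factors 0 passed. Lef1, both a partner of β-catenin and a target of the pathway, had 642, 635 and 591 normalized counts in deletion hearts and 723, 875 and 768 in wild-type hearts. Every deletion library was lower, but the log2 fold change of -0.34 did not pass (SE 0.09, adjusted p = 0.0768, limma), except without wild-type replicate 1 (-0.40, adjusted p = 0.0422, limma). Tcf7, the highest of them per kilobase, averaged 602 ± 38.0 in deletion hearts and 603 ± 82.0 in wild-type hearts (SD, n = 3 each). Tcf7l1 and Tcf7l2 had log2 fold changes of -0.03 and -0.05.

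Axin2, Nkd1 and Nkd2 are feedback inhibitors that canonical signalling induces, and their levels are often read as a measure of its output. None of the 3 passed, and all 3 estimates were below 0. They stayed below 0 in the 19 alternatives, but these reuse the same libraries, and several cannot change a fold change. Nkd1 had 260, 298 and 310 normalized counts in deletion hearts and 354, 485 and 340 in wild-type hearts. The groups were apart (log2 fold change -0.43, SE 0.15, adjusted p = 0.132, limma). Axin2 had 319, 262 and 253 in deletion hearts and 303, 441 and 290 in wild-type hearts, and Nkd2 59.1, 50.1 and 50.8 in deletion hearts and 73.8, 79.2 and 43.0 in wild-type hearts. Both overlapped between groups, at log2 fold changes of -0.29 and -0.24. Wild-type replicate 2 was the highest library for all 3 genes, and without it the median of the 3 fold changes was -0.10, against -0.29 with all libraries. The median was -0.51 without wild-type replicate 3 and -0.48 in the female libraries. Wild-type replicate 2 also had the highest mesenchymal and neural crest marker sums of all libraries. Among wild-type libraries its epicardial and primitive erythroid sums were the highest too. The part of that library or of these sums in the values of the 3 genes was not tested. Of 6 other listed targets of the pathway, 3 had a row and 0 passed. Their estimates were below 0 in 2 and above 0 in 1, with a median log2 fold change of -0.04.

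Planar cell polarity genes place Frizzled and its partners at opposite sides of a cell. Of the 4 measured none passed. The groups were apart in all 4, as in 27.4% of all genes, and 3 had an unadjusted limma p under 0.05, as had 21.4% of all genes. Of 13 further listed genes of this system, 7 estimates were above 0 and 6 below, and 5 were apart between the groups. Celsr1, an adhesion receptor of this system, had 1722, 1682 and 1478 normalized counts in deletion hearts and 1397, 1275 and 1260 in wild-type hearts (log2 fold change 0.31, SE 0.08, adjusted p = 0.0683, limma). Prickle1 had 1920, 1876 and 1779 in deletion hearts and 1471, 1518 and 1653 in wild-type hearts (0.27, SE 0.07, adjusted p = 0.0715, limma). Vangl1 and Vangl2 averaged 1253 ± 105 and 1381 ± 49.5 in deletion hearts and 1074 ± 87.3 and 1276 ± 42.1 in wild-type hearts (SD, n = 3 each). After the length and GC correction the median of the 4 was 0.14, against 0.24, and Celsr1 stood at 0.10. After rescaling to equal totals without haemoglobin, Celsr1 and Prickle1 passed together with Fzd4. Celsr1 also passed without wild-type replicate 1 (0.36, adjusted p = 0.0393, limma).

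**Figure D5:**
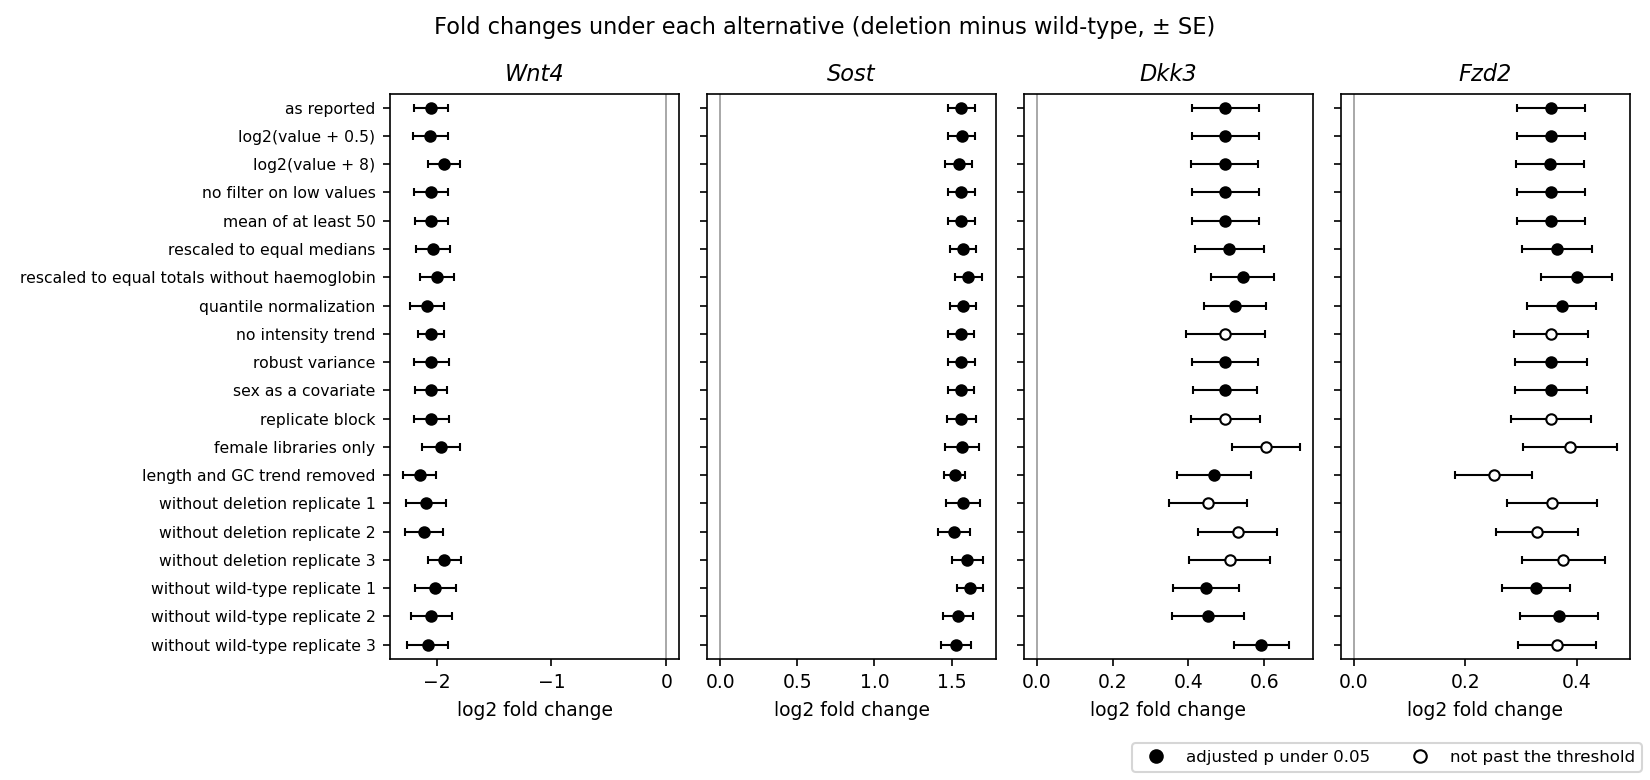
Log2 fold change (deletion minus wild-type, horizontal axes with a separate scale per gene, line at 0) of the 4 members past the threshold under each alternative that kept the groups; bars are standard errors and filled points have an adjusted p under 0.05 in limma. Wnt4 and Sost stay filled throughout, and Dkk3 and Fzd2 are open in 6 and 8 of the 19 alternatives.

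Further components of the pathway were read from the same fit. Of 83 other listed genes 64 had a row, and 2 of these passed, or 3.12%, both higher in deletion hearts, where 3.05% of all genes passed. Sox7, an endothelial factor of the SoxF group, had 679, 631 and 651 normalized counts in deletion hearts and 464, 494 and 476 in wild-type hearts (log2 fold change 0.45, adjusted p = 0.0191, limma). Celsr2, a relative of Celsr1, had 540, 609 and 541 in deletion hearts and 401, 427 and 384 in wild-type hearts (0.48, adjusted p = 0.0263, limma). The groups were apart for both. The other 62 did not pass, and the median log2 fold change was 0.06 over the 64. Among the 11 listed ligands outside the 60 members 1 had a row, and it did not pass.

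Marker sums of other cell types also differed between libraries, and the design cannot tell which of these differences follow from the deletion. Primitive erythroid markers summed to 82220 to 436500 normalized counts in deletion libraries and 116400 to 339000 in wild-type libraries. Foregut and pharyngeal epithelial markers, 7 of 8 measured, summed to 2759 to 3006 in deletion libraries and 1548 to 2216 in wild-type libraries, most of it Krt19, which rose (log2 fold change 0.86). The other 6 measured did not pass and overlapped between groups, with log2 fold changes from -0.37 to 2.69. Epicardial markers, 7 of 7 measured, summed to 2249 to 3824 in deletion libraries and 1665 to 2961 in wild-type libraries. Neural crest markers, 3 of 6 measured, summed to 1902 to 2035 in deletion libraries and 2264 to 2442 in wild-type libraries, most of it Ets1, which endothelium also expresses. Liver bud markers, 4 of 6 measured, summed to 2331 to 3662 in deletion libraries and 2322 to 3302 in wild-type libraries. Most of that sum was Prox1, at means of 2216 in deletion hearts and 2114 in wild-type hearts. Afp ran from 154 to 1353 in deletion libraries and from 267 to 654 in wild-type libraries. The part of these differences in the Wnt pathway values was not tested.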

How the data were processed

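Total RNA of micro-dissected hearts was made into stranded poly(A) libraries and sequenced from both ends, per the labels' protocols. Per the submitters' processing notes, the tools were STAR 2.7.9a, featureCounts (Subread 2.0.1), DESeq2 1.30.1 and bcl2fastq 2.20, with build GRCm39 (mm39). The sources used here do not give the annotation, the strandedness setting or the gene filter. The authors deposited, for each gene and library, a signal called a normalized count; that it is a read count divided by a size factor is read from the named tools and the values. Levels between genes were compared only per kilobase of the union of exons in GENCODE M21. That annotation is on GRCm38, so it served for length, GC content and overlap only. No other gene's exons overlapped those of the 4 members called.

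The 6 columns were matched to samples by the code in each title. The values, as log2(normalized count + 1), were tested in R 4.3.3 with limma 3.58.1 and an intensity trend, for genes with a mean of at least 10, a filter that removed 0 genes since the lowest mean was 15.4. The test was also run on simulated counts with known folds, whose spread depended on the mean level alone. That run does not show how well the test holds in these hearts. Tests were two-sided, and Benjamini-Hochberg adjustment ran over all 15330 genes. Sequencing depth was not worked out from these values, so no counting intervals are given. Members that passed are named with every library, as are those at an unadjusted p under 0.05 (as values or group means) and, per role, the highest per kilobase and the largest fold change. The members and lists were chosen with earlier results of these data known. Alternatives covered the pseudocount, filter, scaling, variance model, the recorded files, sex, a replicate block, a correction for length and GC (a trend fitted per library by natural splines with 4 degrees of freedom each, 96.8% of genes) and each library left out.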

Additional observations from a re-analysis of the deposited data

How the results depend on the processing

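Of 20 alternatives, 19 kept the groups as titled, and in all 19 Wnt4 and Sost passed, with adjusted p up to 0.00969 and 0.00497 in limma. Dkk3 passed in 13 and Fzd2 in 11, and both lost the call without an intensity trend and in the female libraries. Members called numbered 1 lower and 3 higher in the reported fit, with 230 genes lower and 237 higher over the table and 0 lower and 2 higher among the other pathway genes. Totals without haemoglobin gave 6 members and 393 genes higher, and put 65.3% of all calls higher, against 50.7%, while moving the median of all genes to 0.04. Without an intensity trend 1 member was higher, with 73 genes lower, 73 higher and 0 other pathway genes higher. The female libraries alone gave 1 member higher, 23 genes lower, 12 higher and 0 other pathway genes higher. With the length and GC correction, 2 members were lower, 2 other pathway genes lower and 1 higher, and 38.6% of all calls were higher. The cause of these shifts was not tested.

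The same-number correlations of deviations between deletion and wild-type libraries were -0.0347, -0.121 and -0.137. Those of unlike numbers ran from -0.164 to 0.252. With 3 libraries per group these values cannot decide whether any libraries were paired. A replicate block gave 1 member higher, 110 genes lower, 96 higher and 0 other pathway genes higher, and Dkk3 and Fzd2 stood at adjusted p = 0.0502 and 0.0633 in limma. Leaving out each library in turn gave 1 to 3 members lower and 1 to 4 higher, 61 to 695 genes lower and 42 to 466 higher, and 0 to 2 other pathway genes lower and 0 to 5 higher. The highest counts over the table came without wild-type replicate 2 and the lowest without deletion replicate 2.

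With the files as recorded, in which 4 libraries change group, 0 members were lower and 0 higher, 0 genes lower and 0 higher, and 0 other pathway genes higher (limma; 3 members and 414 genes at an unadjusted p under 0.05). The log2 fold changes then had the opposite sign for Wnt4 (0.57), Wnt5a (0.12), Wnt9b (-0.47), Sost (-0.53), Dkk3 (-0.31), Fzd2 (-0.16), Fzd4 (-0.049), Fzd8 (-0.11), Ror2 (-0.10), Dvl2 (-0.0022), Dvl3 (-0.055), Lef1 (0.085), Nkd1 (0.34), Prickle1 (-0.19) and Celsr1 (-0.16). Because most libraries of each group change sides, these reversals largely follow from the swap itself and say nothing further on these genes. Every direction in the text rests on the titles. Tests on whole reads with edgeR or DESeq2 were not run. In each library the values looked like whole multiples of a fixed step. In 3 libraries a check that takes the smallest value as a single read did not accept that step. Sequencing depth was not worked out from these values, so its limit on low members such as Wnt9b was not assessed.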
